A study of Mus musculus with 180 samples.

Results

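The mouse mitochondrial genome carries 37 genes, and all 37 were found among the 54429 genes of the deposited count table as the symbols that start with mt-. They comprise 13 protein genes, 2 rRNA genes and 22 tRNA genes. Counts came from the hippocampus of 30 male mice, with 6 libraries from each mouse and 180 in all. A Camk2a library held RNA captured with an antibody to the HA tag on the ribosomal protein Rpl22, a pS6 library held RNA captured with an antibody to phosphorylated ribosomal protein S6, and an Input library held RNA without capture. Each of these was made from the membrane (pellet) fraction and from the cytosolic (supernatant) fraction of the same homogenate. All mice had the same genotype, the transgene Tg(Camk2a-cre)T29-1Stl from a B6.Cg line together with the Rpl22tm1.1Psam allele from a B6N.129 line, so that the tag depended on Cre driven by a Camk2a promoter, whereas the pS6 antibody was not limited to those cells. The 4 groups were CFC with SD (7 mice), CFC with Sleep (8 mice), NoCFC with SD (7 mice) and NoCFC with Sleep (8 mice), where CFC is contextual fear conditioning, NoCFC mice stayed in the home cage, SD is sleep deprivation and Sleep is undisturbed sleep. The duration of SD is not given in the labels, and neither are the ages of the mice.

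Mitochondrial DNA is transcribed from both strands into long RNAs, from which tRNAs, rRNAs and mRNAs are cut, and the mRNAs then receive short poly(A) tails. The mRNAs are translated inside the organelle by mitochondrial ribosomes, which hold neither Rpl22 nor ribosomal protein S6. The proteins are core subunits of respiratory complexes I, III and IV and of ATP synthase, and neurons depend on these complexes for the ATP that drives ion pumping and synaptic transmission. The nuclear genome also holds copies of pieces of mitochondrial DNA, and reads from such a piece can be assigned to either place.

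Total counts per library were 12 to 27 M (mega-counts), with a mean of 18.8 ± 3.03 M (SD, n = 180; beside a ± value, SD stands for the standard deviation). The labels give the cell type as neuron, and the excitatory neuron markers summed to a median of 10082 CPM (counts per mega-count of a library's total) in membrane Camk2a libraries, 9695 in cytosolic Camk2a, 8817 in membrane pS6, 9635 in cytosolic pS6, 7520 in membrane Input and 7340 in cytosolic Input. Markers of other cell types were present in each of the 6 types of library, and no marker gene was at 0 in all libraries. The astrocyte markers summed to a median of 1532 CPM in membrane Camk2a, 122 in cytosolic Camk2a, 3591 in membrane pS6, 308 in cytosolic pS6, 5058 in membrane Input and 754 in cytosolic Input. In bulk libraries of this kind, fewer cells of a type and less RNA per cell cannot be told apart. The titles number the mice. Numbers 1 to 11 belong to the NoCFC groups only and 12 to 22 to the CFC groups only, whereas 23 to 30 include 2 mice of each group. The labels name no batch, and these 3 stretches are called runs of mouse numbers here.

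Which of the 37 genes could be read from the table at all differed by class and by position. Protein genes held 38537456 counts, 70.0% of all counts on the 37 genes. The 2 rRNA genes held 16505082 counts, or 30.0%, and the tRNA genes held 11418 counts, or 0.0207%. A set of 9 genes had a count in each of the 180 libraries and held 99.97% of the counts. These were mt-Rnr1 and mt-Rnr2, the rRNAs of the small and large mitochondrial ribosomal subunit, mt-Nd1, mt-Nd2, mt-Nd4, mt-Nd5 and mt-Nd6, subunits of complex I, mt-Co1, the catalytic subunit of complex IV, and mt-Cytb, the cytochrome b of complex III. The remaining 6 protein genes held 3744 counts over all libraries. They were mt-Co2 (240 counts), mt-Co3 (360 counts), mt-Atp6 (322 counts), mt-Atp8 (23 counts), mt-Nd3 (2789 counts) and mt-Nd4l (10 counts).

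A nearly identical copy of part of the mitochondrial genome in chromosome 1 lay over those genes, except for most of mt-Atp8. In GRCm38 with GENCODE vM21, 7 unprocessed pseudogenes on the minus strand of chr1:24611535-24616188 aligned, in the same order, to 4140 bases between positions 6390 and 11042 of chrM. Annotated transcripts alone were compared, so the bases between the aligned stretches, 5 tRNA genes among them, were not. The copy held over 90% of the bases of 5 protein genes (mt-Co2, mt-Atp6, mt-Co3, mt-Nd3 and mt-Nd4l), and these 5 together had 3721 counts. The 7 pseudogenes had 53185 counts, with 24982 at Gm28438 (the copy of mt-Nd3), 11355 at Gm28437 (mt-Co3), 5747 at Gm10925 (mt-Atp6), 5013 at Gm29216 (the end of mt-Co1), 4414 at Gm28661 (mt-Co2), 1289 at Gm10222 (mt-Nd4l) and 385 at Gm28439 (the first 876 bases of mt-Nd4). How reads that match both places were counted is not given in the sources used here, so the values of mt-Co2, mt-Atp6, mt-Co3, mt-Nd3 and mt-Nd4l are not read as transcript levels below. For mt-Co1 and mt-Nd4 the copy covers 31.3% and 63.6% of the gene, and their counts carry the same uncertainty over that stretch. Annotated pseudogenes elsewhere matched less closely. Among them were Gm13340 (all of mt-Co1, 97.6% identity), Gm13339 (part of mt-Nd2, 96.7%) and Gm4076 (part of mt-Nd5, 95.2%). Others were Gm11408 (mt-Nd6, 93.6%) and Gm11410 (mt-Cytb, 92.9%), and the counts of these pseudogenes are not given here. mt-Atp8 lies between aligned stretches, and no annotated pseudogene matched it beyond the 43 bases it shares with mt-Atp6.

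Along the 345 aligned bases of mt-Nd3 and Gm28438 there was a single difference, T3C, with positions counted from the first base of the gene. The 2 sequences are shown because the table divides its counts between them mouse by mouse. They are the first 33 bases of each gene, from GENCODE vM21 transcripts, at chrM:9459-9491 on the plus strand and chr1:24613087-24613119 on the minus strand of GRCm38, with the differing base in capitals.
mt-Nd3: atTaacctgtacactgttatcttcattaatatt
Gm28438: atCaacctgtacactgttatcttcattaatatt
Where the copy ends inside mt-Nd4, the gene becomes distinguishable from it. The stretch across that end is chrM:11003-11082 on the plus strand, and the capitals mark the bases beyond the copy.
mt-Nd4: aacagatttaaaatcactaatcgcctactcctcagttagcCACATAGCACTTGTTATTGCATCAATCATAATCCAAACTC
The genes also overlap one another. The 204 bases of mt-Atp8 are shown whole, at chrM:7766-7969 on the plus strand, because the capitals, 43 bases that it shares with mt-Atp6, are part of both genes.
mt-Atp8: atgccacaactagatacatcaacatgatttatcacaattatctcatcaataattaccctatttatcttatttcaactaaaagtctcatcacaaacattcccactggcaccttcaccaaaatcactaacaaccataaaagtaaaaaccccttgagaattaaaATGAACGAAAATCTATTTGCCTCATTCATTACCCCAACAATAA
The last bases of mt-Nd5, at chrM:13522-13565 on the plus strand, run into mt-Nd6, which is the only protein gene on the minus strand. The capitals are the 14 bases that lie in both, and the strand setting of the counting is not given in the sources used here, so reads there and other antisense reads may be counted for either gene.
mt-Nd5: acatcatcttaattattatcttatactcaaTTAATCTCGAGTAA

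In 25 of the 30 mice, the counts of the pair mt-Nd3 and Gm28438 stood almost entirely at the chromosome 1 copy, with 0 to 3 counts at mt-Nd3 and 633 to 1301 at Gm28438 over the 6 libraries of a mouse. The other 5 mice had the reverse. Mouse 5 had 576 counts at mt-Nd3 and 18 at Gm28438, mouse 11 had 503 and 15, mouse 15 had 493 and 19, mouse 22 had 498 and 33, and mouse 27 had 698 and 31. The share of the pair at mt-Nd3 was thus 93.8% to 97.1% in these 5 mice and at most 0.257% in the other 25, with no mouse in between. The split was the same within membrane Camk2a, membrane pS6, membrane Input and cytosolic Input. Cytosolic Camk2a and cytosolic pS6 libraries had at most 4 and 9 counts at Gm28438, too few to show it. In membrane Input the 5 mice had 328 to 535 counts at mt-Nd3 and 5 to 19 at Gm28438, and the other 25 had 0 to 2 and 424 to 1000. In membrane Camk2a the 5 mice had 20 to 52 and 0 to 4 counts, and the other 25 had 0 to 1 and 40 to 115. The 5 mice came from all 4 groups: mouse 22 was in CFC SD, mouse 15 in CFC Sleep, mice 11 and 27 in NoCFC SD, and mouse 5 in NoCFC Sleep. They were identified after the values were seen and enter no test. The aligned bases of the pair differ at a single position, so counts at Gm28438 are not read as RNA from chromosome 1. Gm28438 averaged 602 counts in membrane Input and 1.23 in cytosolic Camk2a libraries. What set the 5 mice apart is not given in the labels and was not tested.

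The tRNA genes, 59 to 75 bases long, were nearly empty. Of 22, 16 had a count in some library and 6 had none (mt-Tw, mt-Td, mt-Tk, mt-Tg, mt-Tr and mt-Th). Within the span of the chromosome 1 copy lie 5 tRNA genes, and 4 of these had none (mt-Td, mt-Tk, mt-Tg and mt-Tr). The part of the copy in their counts was not tested. A single gene, mt-Tp, the proline tRNA, held 10194 of the 11418 tRNA counts (89.3%). The next were mt-Tc with 297 counts, mt-Tt with 224, mt-Tq with 200, mt-Tn with 170 and mt-Te with 107. mt-Tp and mt-Tt are shown because they are neighbours of equal length on opposite strands with very unequal counts: mt-Tp lies at chrM:15356-15422 on the minus strand and mt-Tt at chrM:15289-15355 on the plus strand, directly after mt-Cytb. No base is in capitals, as no position within them is singled out.
mt-Tp: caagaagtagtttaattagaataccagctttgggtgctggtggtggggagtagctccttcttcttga
mt-Tt: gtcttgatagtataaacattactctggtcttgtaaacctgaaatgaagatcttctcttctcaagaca
mt-Tp had a mean of 1.66 CPM in membrane Camk2a, 0.0397 in cytosolic Camk2a, 2.04 in membrane pS6, 0.123 in cytosolic pS6, 12.9 in membrane Input and 2.49 in cytosolic Input (n = 30 mice each). The whole tRNA class took at most a mean of 0.00144% of counts in any type of library. The size range of RNA that the library preparation kept is not given in the labels, and this share is not read as a level of tRNA in the tissue.

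**Figure D1:**
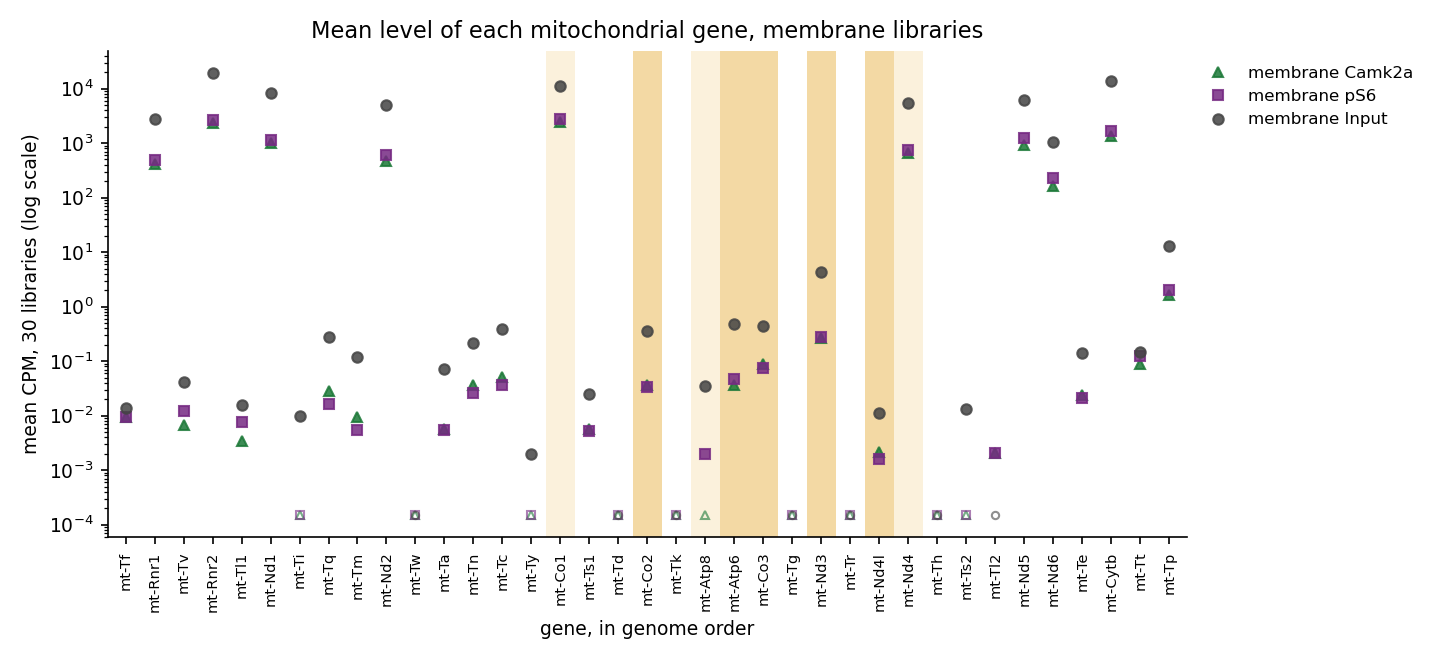
Mean level in CPM (log axis) of each mitochondrial gene with a count, in genome order, in membrane Camk2a, membrane pS6 and membrane Input libraries (n = 30 mice each). Dark shading marks the 5 genes held over 90% in the chromosome 1 copy, light shading marks genes partly held in it, and open symbols at the bottom stand for genes at 0 in all 30 libraries. The 9 genes with a count in every library, the lightly shaded mt-Co1 and mt-Nd4 among them, stand far above the other protein genes and the tRNAs.

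The share of all counts on the mitochondrial genome differed widely among the 6 types of library. It had a lowest value of 0.754%, a median of 0.986% and a highest of 1.28% in membrane Camk2a, and 0.00928%, 0.0139% and 0.0203% in cytosolic Camk2a. It was 0.803%, 1.18% and 1.38% in membrane pS6, and 0.0237%, 0.0403% and 0.0659% in cytosolic pS6. In Input it was 5.60%, 7.51% and 8.66% in the membrane fraction, and 0.680%, 0.984% and 1.28% in the cytosolic fraction. Membrane Input thus stood above each other type with no overlap, cytosolic Camk2a stood below each other type, and membrane Camk2a and cytosolic Input covered much the same range. Within a mouse, the membrane library had a median of 71.8 times the share of its cytosolic library in Camk2a (range 44.2 to 105), 29.5 times in pS6 (17.9 to 37.4) and 7.53 times in Input (5.69 to 9.82). The captured library had a median of 0.133 times the share of its Input in membrane Camk2a, 0.154 times in membrane pS6, 0.0142 times in cytosolic Camk2a and 0.0419 times in cytosolic pS6.

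**Figure D2:**
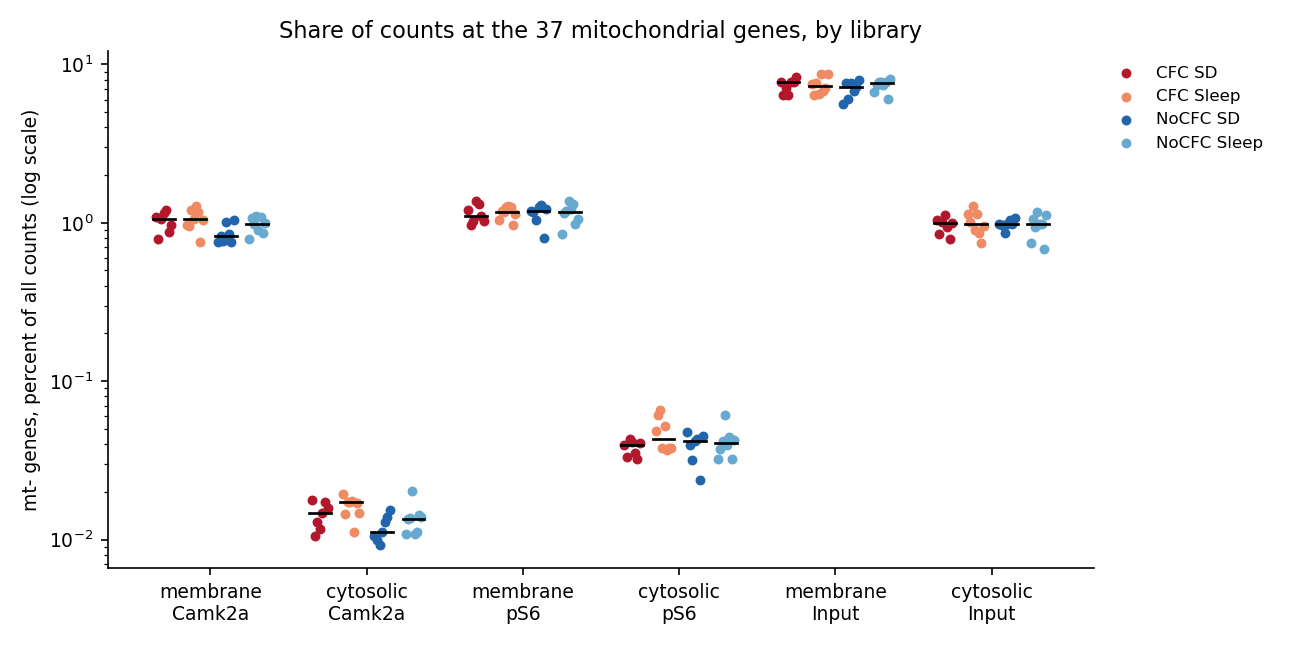
Share of all counts on the 37 mitochondrial genes (percent, log axis) in each of the 180 libraries, by type of library and by training and sleep group; each point is a library and each bar a group median. Membrane libraries lie above their cytosolic libraries in all 3 kinds, and the 4 groups overlap within each type.

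Among the 9 genes, mt-Co1 had the highest mean CPM in the 4 captured types, where its range overlapped that of mt-Rnr2, and mt-Rnr2 had the highest mean CPM in both Input types. mt-Rnr2 had 1699, 2429 and 3065 CPM (lowest, median and highest of 30 mice) in membrane Camk2a, 20.5, 28.6 and 44.9 in cytosolic Camk2a, and 12933, 19793 and 26858 in membrane Input. mt-Co1 had 1700, 2454 and 3295 CPM in membrane Camk2a, 24.7, 38.8 and 57.7 in cytosolic Camk2a, and 8469, 10986 and 15645 in membrane Input. mt-Nd6 was the lowest of the 9, with means of 164 CPM in membrane Camk2a, 2.42 in cytosolic Camk2a, 228 in membrane pS6, 9.82 in cytosolic pS6, 1052 in membrane Input and 122 in cytosolic Input. Compared per length, in CPM per kb, the order in membrane Input was mt-Rnr2 (mean 12276), mt-Cytb (11996), mt-Nd1 (8499), mt-Co1 (7214), mt-Nd2 (4741), mt-Nd4 (3959), mt-Nd5 (3397), mt-Rnr1 (2928) and mt-Nd6 (2027). When the length was taken outside the chromosome 1 copy only, mt-Co1 came to 10495 and mt-Nd4 to 10869 CPM per kb. In membrane Camk2a, mt-Co1 (1575) and mt-Rnr2 (1503) led in CPM per kb of whole length, with mt-Cytb at 1188 and mt-Nd6 at 316. With the length outside the copy only, mt-Co1 came to 2291 there and mt-Nd4 to 1295, above mt-Cytb.

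The makeup of the mitochondrial counts was not the same in captured and Input libraries. mt-Co1 took a mean of 24.8% of them (range 21.9% to 27.9%) in membrane Camk2a and 23.7% (20.3% to 29.7%) in membrane pS6, against 15.3% (12.6% to 18.2%) in membrane Input. mt-Cytb took 13.9% in membrane Camk2a and 14.3% in membrane pS6, against 18.8% in membrane Input. The count of mt-Cytb per count of mt-Co1 was accordingly 0.561 (0.464 to 0.649) in membrane Camk2a and 0.607 (0.458 to 0.674) in membrane pS6, against 1.24 (1.12 to 1.48) in membrane Input, and the captured ranges did not overlap that of Input. In the cytosolic fraction, mt-Nd5 took 15.3% (13% to 18.6%) in pS6, against 8.33% (6.54% to 9.47%) in Input, with no overlap either. Counts of rRNA per count of protein genes were lowest in cytosolic pS6, at 0.266 (0.234 to 0.303), against 0.461 (0.367 to 0.562) in cytosolic Input. Both rRNAs are cut from the same precursor, and mt-Rnr2 had a mean of 5.74 counts per count of mt-Rnr1 in membrane Camk2a, 5.41 in membrane pS6 and 6.97 in membrane Input. These ratios are given as descriptions with no test. The genes tended to move together from mouse to mouse. The standard deviation over mice of a gene's log2 level had a median of 0.18 to 0.32 across the 6 types. That of the log2 ratio of 2 genes, over 36 pairs, had a median of 0.11 to 0.20. In membrane Input these 2 medians were close, at 0.18 for the level and 0.16 for the ratio.

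The membrane fraction was set against the cytosolic fraction to ask where each gene's RNA was found. All 9 genes rose in membrane libraries in Camk2a, in pS6 and in Input. For mt-Co1 the Camk2a values given above leave a wide gap, and in pS6 they were 1874, 2717 and 3397 CPM (lowest, median and highest of 30 mice) in membrane, against 64.1, 99.1 and 176 CPM in cytosolic libraries. For mt-Nd5 they were 896, 1276 and 1580 CPM in membrane pS6, against 33.7, 62.9 and 114 CPM in cytosolic pS6. The groups did not overlap for any of the 9 genes in Camk2a, pS6 or Input, and the membrane library was higher in 30 of 30 mice. The log2 fold changes, membrane over cytosolic, by edgeR's quasi-likelihood test with Benjamini-Hochberg adjustment and a fold of at least 2, were 6.14 ± 0.08 (SE) for mt-Nd5 to 6.64 ± 0.07 for mt-Nd4 in Camk2a, with adjusted p of at most 6.42e-58. In pS6 they were 4.54 ± 0.08 for mt-Nd5 to 5.41 ± 0.08 for mt-Rnr2 (adjusted p at most 1.22e-47), and in Input 2.97 ± 0.06 for mt-Co1 to 3.41 ± 0.05 for mt-Nd4 (at most 3.27e-48). Of all genes tested, 27.9% were called higher in the membrane fraction in Camk2a, 25.3% in pS6 and 22% in Input, and the median log2 fold changes over all genes were -0.07, -0.03 and -0.12. Because these 9 genes had counts in all libraries, their passing of the filter on low counts did not depend on the membrane fraction. mt-Tp, the only tRNA tested in each of the 3, had 73 to 402 counts in a membrane Input library, against 22 to 68 in a cytosolic one, and rose by 2.63 ± 0.08 on the log2 scale (SE). It had 13 to 52 counts in a membrane Camk2a library, against 0 to 3 in a cytosolic one, and 16 to 52 in a membrane pS6 library, against 0 to 7. In these captures it passed the filter through membrane libraries, and no fold is given.

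**Figure D3:**
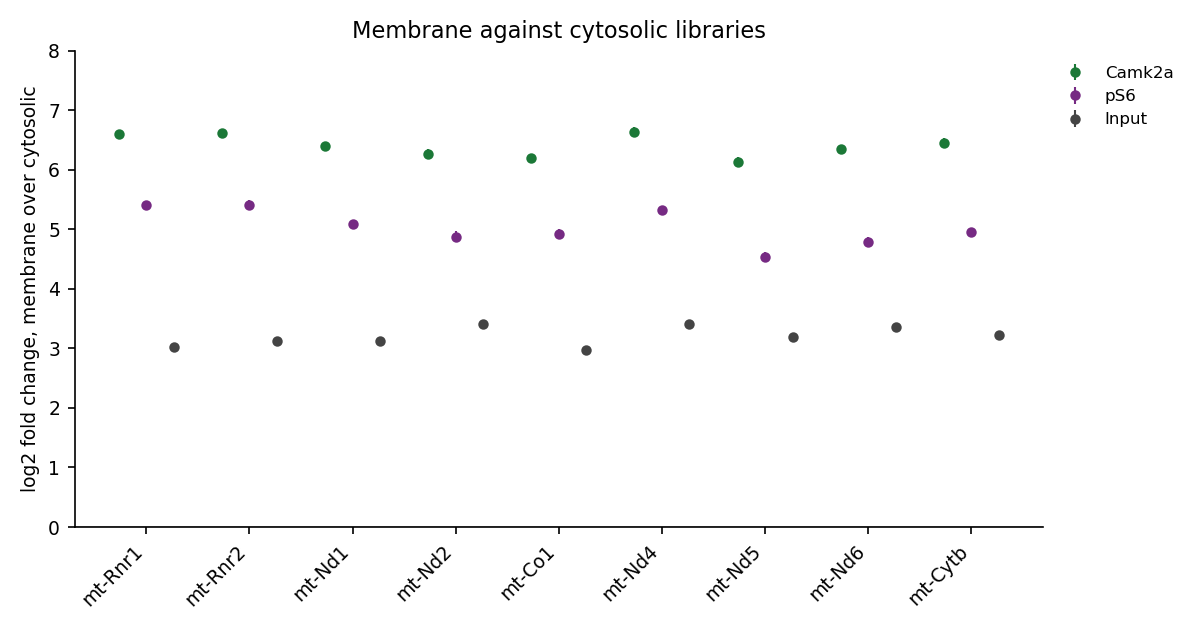
Log2 fold change, membrane over cytosolic, of the 9 mitochondrial genes with a count in every library, in Camk2a, pS6 and Input (n = 30 mice in each fraction); error bars are SE and mostly lie within the points. The Camk2a points lie between 6.14 and 6.64, the pS6 points between 4.54 and 5.41 and the Input points between 2.97 and 3.41.

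The difference between fractions was itself larger in captured RNA than in Input. Tested as an interaction, it was larger in Camk2a than in Input by 2.73 (mt-Nd2) to 3.44 (mt-Rnr1) on the log2 scale, and all 9 genes passed, against 7.56% of all genes tested in that direction. In pS6 it was larger than in Input by 1.35 (mt-Nd5) to 2.38 (mt-Rnr1), and again all 9 passed, against 3.51% of all genes. The 2 rRNAs had the largest interactions of the 9 in both captures, with mt-Rnr2 at 3.35 in Camk2a and 2.28 in pS6.

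Markers of other cell types moved the same way between fractions. All 6 astrocyte markers were higher in membrane libraries in Camk2a, pS6 and Input (median log2 fold change 4.27, 3.84 and 3.19), as were all 6 microglia markers (4.24, 3.28 and 2.76) and all 4 endothelial markers (5.22, 4.75 and 3.74). The excitatory neuron markers had a median of -0.19 in Camk2a, -0.15 in pS6 and -0.45 in Input. The part of these cells in the mitochondrial values was not tested. The 7 pseudogenes of the chromosome 1 copy held a mean of 0.0813% to 0.105% as many counts as the mitochondrial genes in the 6 types of library.

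Among nuclear genes for mitochondrial proteins, by the same test and fold, few rose in the membrane fraction. Over all genes tested, 10.2% fell in Camk2a, 9.96% in pS6 and 8.97% in Input. Of 24 nuclear subunits of the same respiratory complexes, 1 rose in the membrane fraction in each kind of library. It was Uqcrc1, a core subunit of complex III, at 1.74 ± 0.04 in Camk2a, 1.55 ± 0.03 in pS6 and 1.39 ± 0.04 in Input (log2, SE), and the list's medians were -0.43, -0.28 and -0.48. Among 10 genes of mitochondrial transcription, 5 fell in Camk2a, 4 in pS6 and 3 in Input and none rose. Tfam, which packages mitochondrial DNA and starts its transcription, fell by 1.35 ± 0.03, 1.02 ± 0.04 and 1.07 ± 0.04. Of the RNA processing genes, 9 of 31 tested fell in Camk2a, among them Mtpap, the mitochondrial poly(A) polymerase, at -1.42 ± 0.04, and none rose. Of the mitochondrial ribosomal protein genes, 13 of 79 tested fell in Camk2a, 9 of 80 in pS6 and 21 of 78 in Input, with medians of -0.70, -0.71 and -0.89. The translation factors had medians of -0.50, -0.29 and -0.26 with 2 of 14 lower in each, and the DNA maintenance genes -0.66, -0.67 and -0.61 with 1, 1 and 0 of 10 lower.

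Captured libraries were set against Input of the same fraction to compare the share that each RNA took of the library. All 9 genes fell in each of the 4 comparisons. In cytosolic Camk2a, mt-Cytb had 11.9, 19.5 and 26.1 CPM (lowest, median and highest of 30 mice), against 1252, 1773 and 2122 CPM in cytosolic Input. In membrane Camk2a it had 1016, 1367 and 1849 CPM, against 11108, 14003 and 17447 CPM in membrane Input. In membrane pS6 it had 1103, 1678 and 1993 CPM. No captured library reached an Input library of its fraction in any of the 9 genes. The log2 fold changes over Input were -6.45 (mt-Cytb) to -5.30 (mt-Co1) in cytosolic Camk2a, where 16.5% of all genes were called lower, and -3.30 (mt-Nd2) to -2.09 (mt-Co1) in membrane Camk2a, where 16.8% were. They were -5.12 (mt-Rnr2) to -3.59 (mt-Nd6) in cytosolic pS6 (8.84% called lower) and -3.08 (mt-Cytb) to -2.05 (mt-Co1) in membrane pS6 (3.62% called lower). mt-Co1 was the least depleted of the 9 in 3 of the 4 comparisons. In the membrane fraction mt-Tp fell by 2.85 ± 0.09 in Camk2a and by 2.68 ± 0.09 in pS6 (SE). In the cytosolic fraction its captured libraries held 0 to 3 (Camk2a) and 0 to 7 (pS6) counts, against 22 to 68 in Input, and it passed the filter through Input, so that no fold is given. The 6 astrocyte markers were also all lower in Camk2a, with medians of -3.42 (cytosolic) and -1.76 (membrane). In pS6, 5 of 6 astrocyte markers were lower in the cytosolic fraction (median -1.25) but 1 of 6 in the membrane fraction (-0.84). Their part in the mitochondrial values was not tested. The nuclear subunits had medians of 0.29 in cytosolic and 0.46 in membrane Camk2a, where none of 24 reached a fold of 2 and 21 and 22 had an unadjusted p under 0.05 by edgeR. In pS6, 2 of 24 rose in each fraction, where 11.4% (cytosolic) and 7.23% (membrane) of all genes did.

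The 2 captures were also compared with each other. In the cytosolic fraction all 9 genes were higher in pS6 than in Camk2a, by 1.16 ± 0.07 (mt-Rnr2) to 1.89 ± 0.09 (mt-Nd5) on the log2 scale (SE), in 30 of 30 mice, and 22.3% of all genes were called higher. mt-Nd5 had 33.7, 62.9 and 114 CPM in cytosolic pS6, against 10.4, 15 and 22.1 CPM in cytosolic Camk2a, without overlap, and the captures did not overlap in 7 of the 9 genes. In the membrane fraction the differences were 0.01 ± 0.06 (mt-Rnr2) to 0.35 ± 0.05 (mt-Nd5), and no gene reached a fold of 2, where 17.9% of all genes did in either direction. The median of the 9 genes was 0.10, close to the 0.09 over all genes tested. Scaled by library totals, as the CPM values are, the 9 genes had 0.15 to 0.49, and the median over all genes was 0.23. mt-Nd5 had 896, 1276 and 1580 CPM in membrane pS6, against 670, 920 and 1188 CPM in membrane Camk2a. It was higher in 30 of 30 mice with an adjusted p of 2.63e-10, and mt-Nd6 in 29 of 30 with 3.12e-08, but the ranges of the 2 captures overlapped. Of the members tested there, 4 had an unadjusted p under 0.05 in edgeR's test.

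**Figure D4:**
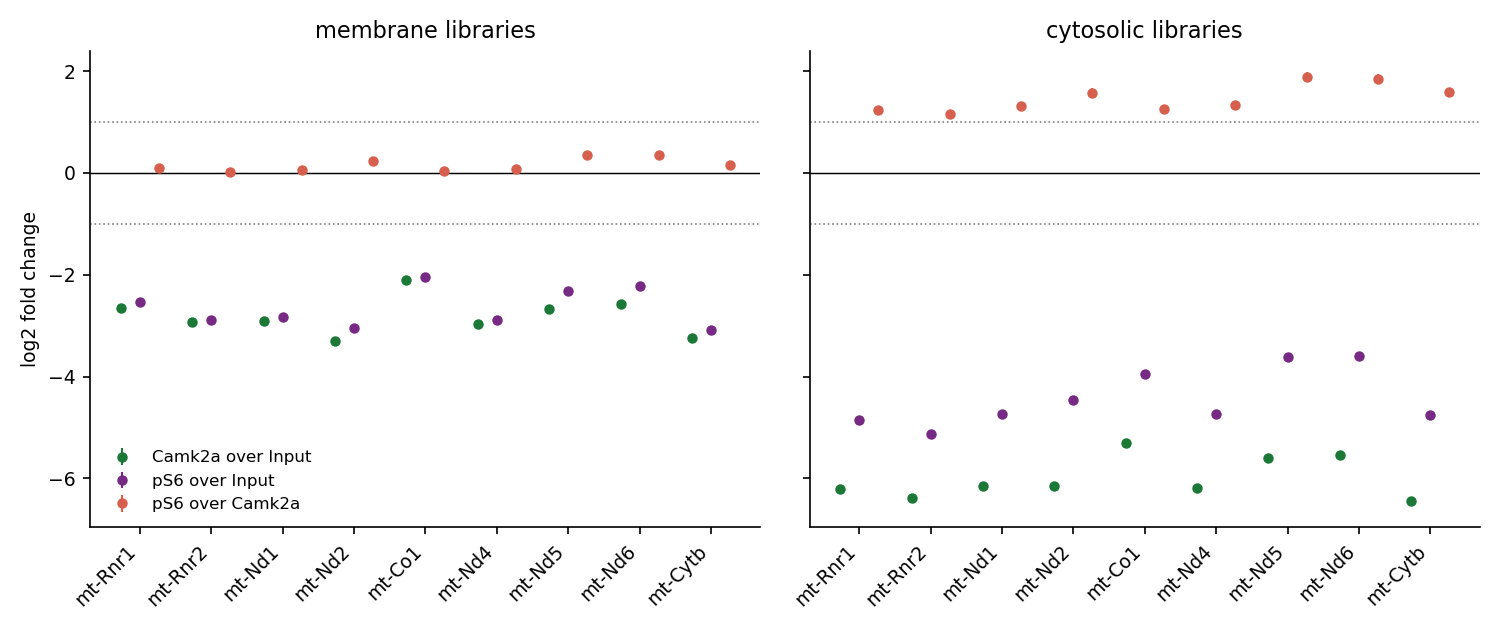
Log2 fold change of the 9 mitochondrial genes for each capture over Input and for pS6 over Camk2a, in cytosolic and membrane libraries (n = 30 mice each; error bars are SE, dotted lines a fold of 2). Capture over Input lies below the lower dotted line throughout, and pS6 over Camk2a lies above the upper one in the cytosolic fraction alone.

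Sleep deprivation was compared with sleep within each type of library, over 14 SD and 16 Sleep mice, to ask whether the transcripts followed recent sleep. A single member changed. mt-Nd6 fell in cytosolic pS6, with 4.39, 8.35 and 12.3 CPM (lowest, median and highest) in SD mice and 7.86, 10.3 and 19.3 CPM in Sleep mice. The ranges overlapped, and 13 of 14 SD mice lay below the median of the Sleep mice with the same training. The log2 fold change, SD over Sleep, was -0.42 ± 0.12 (SE), with an adjusted p of 0.0239 in edgeR's quasi-likelihood test, against 3.28% of all genes called lower. Within training groups, its mean was 8.36 ± 0.989 CPM in CFC SD and 11.1 ± 2.78 in CFC Sleep (SD, n = 7 and 8), and 8.33 ± 2.35 in NoCFC SD and 11.2 ± 3.49 in NoCFC Sleep (n = 7 and 8). Within runs of mouse numbers the log2 difference was -0.40 ± 0.18 for numbers 1 to 11, -0.44 ± 0.17 for 12 to 22 and -0.40 ± 0.19 for 23 to 30, and none of these passed on its own. mt-Nd5, its overlapping neighbour on the other strand, had 56.6 ± 10.7 CPM in SD and 70.6 ± 19.3 in Sleep mice (SD, n = 14 and 16), a log2 difference of -0.32 ± 0.12 with an adjusted p of 0.109. In cytosolic pS6 the inhibitory neuron markers summed to 795 to 1008 CPM in SD and 593 to 782 CPM in Sleep mice, and all 6 rose. The astrocyte markers there summed to 254 to 813 CPM in SD and 192 to 611 CPM in Sleep mice, with none of 6 called by edgeR and 1 at an unadjusted p under 0.05. The part of these cells in the mt-Nd6 value was not tested.

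In the other 5 types of library no member passed for SD, and the shares of all genes called in either direction were 6.28% (cytosolic Camk2a), 2.97% (membrane Camk2a), 1.73% (membrane pS6), 3.17% (cytosolic Input) and 1.37% (membrane Input). The log2 differences of the 9 genes were negative for 9 of 9 in cytosolic Camk2a (median -0.20), 8 of 9 in membrane Camk2a (-0.16) and 9 of 9 in cytosolic pS6 (-0.20). The medians were -0.04 in membrane pS6, 0.01 in cytosolic Input and -0.05 in membrane Input, and over all genes tested they lay within 0.01 of 0 in each type. In cytosolic Camk2a, membrane Camk2a and cytosolic pS6, 9, 9 and 8 of 9 were negative in mice 1 to 11. In mice 12 to 22 they were 9, 7 and 9. In mice 23 to 30 they were 3, 6 and 7, with medians of 0.06, -0.08 and -0.15. Because the 9 genes tended to move together, their signs are not separate observations. By edgeR's test, the members with an unadjusted p under 0.05 numbered 1 in cytosolic Camk2a, 5 in membrane Camk2a, 0 in membrane pS6, 0 in cytosolic Input and 1 in membrane Input. In membrane Camk2a, mt-Nd1 came closest, at -0.20 with an adjusted p of 0.0740. Whether SD acted differently in CFC than in NoCFC mice was tested as an interaction in each type, and no member and no other gene passed (0% called, and no member had an unadjusted p under 0.05 in edgeR's test). Interactions of SD with fraction passed for no member in Camk2a, pS6 or Input (0% of all genes called in each; members with an unadjusted p under 0.05 numbered 0, 1 and 0). Interactions of SD with capture passed for none either. Of all genes, 0.0122% (Camk2a against Input), 0.672% (pS6 against Input) and 0.586% (pS6 against Camk2a) were called in the cytosolic fraction, and 0%, 0.111% and 0.0589% in the membrane fraction. Members with an unadjusted p under 0.05 numbered 4 for cytosolic pS6 against Input and 0 in the other 5. For mt-Nd6 in cytosolic pS6 against cytosolic Input the difference was -0.44 with an adjusted p of 0.196. With the libraries blocked by mouse, the same difference was -0.43 ± 0.11 with an adjusted p of 0.0315.

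Fear conditioning was compared with the home cage over 15 CFC and 15 NoCFC mice. In membrane Camk2a 3 members rose and none fell, where 9.81% of all genes were called higher. mt-Co1 had 2007, 2652 and 3295 CPM (lowest, median and highest) in CFC mice, against 1700, 2145 and 2854 CPM in NoCFC mice. mt-Cytb had 1075, 1541 and 1849 CPM in CFC mice, against 1016, 1224 and 1483 CPM in NoCFC mice. mt-Nd5 had 701, 978 and 1188 CPM in CFC mice, against 670, 842 and 992 CPM in NoCFC mice. The ranges overlapped in all 3, and in each of them 14 of 15 CFC mice lay above the median of the NoCFC mice with the same sleep. The log2 fold changes, CFC over NoCFC, were 0.31 ± 0.07 for mt-Co1 (SE, adjusted p = 0.00196), 0.30 ± 0.06 for mt-Cytb (0.00143) and 0.25 ± 0.06 for mt-Nd5 (0.00546) by edgeR's quasi-likelihood test. The other 6 genes had 0.09 to 0.16 and did not pass. Training coincides with the run of mouse numbers in mice 1 to 22. In mice 23 to 30, which hold both, the differences were 0.08 ± 0.11, 0.01 ± 0.09 and 0.04 ± 0.10 for mt-Co1, mt-Cytb and mt-Nd5 and none passed, so that over the other mice training and run cannot be told apart. With the run as a term the values were 0.08 ± 0.12, 0.00 ± 0.10 and 0.03 ± 0.11. In these libraries 4 of 4 markers of nuclear RNA were lower in CFC, with a summed level of 76.5 to 138 CPM in CFC and 95.9 to 533 CPM in NoCFC mice, and 4 of 6 microglia markers were higher, at 104 to 302 CPM in CFC and 100 to 168 CPM in NoCFC mice. Their part in the difference was not tested.

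In the other types of library the comparison by training gave 1 call. mt-Co1 in membrane pS6 averaged 2834 ± 312 CPM in CFC and 2601 ± 349 CPM in NoCFC mice (SD, n = 15 each), with 10 of 15 CFC mice above the NoCFC median. The log2 difference was 0.16 ± 0.06 (SE, adjusted p = 0.0496, 8.1% of all genes called higher). The call is lost when libraries are scaled by their totals (0.13, adjusted p = 0.170), when no filter is applied (0.17, adjusted p = 0.0620), and with the run as a term (0.21 ± 0.11). The 9 genes were split in sign there, with 5 positive and 4 negative, or 2 positive and 7 negative when scaled by totals. In cytosolic Camk2a all 9 genes were positive, 0.23 to 0.30, and each had an unadjusted p under 0.05, but none passed after adjustment (lowest adjusted p 0.370, 0.148% of all genes called). In membrane Input mt-Rnr2 had 0.21 ± 0.07 with an adjusted p of 0.0923, and no member passed (6.53% of all genes called, 3 members with an unadjusted p under 0.05). None passed in cytosolic pS6 (0.133% called, 1 member under 0.05) or cytosolic Input (0.219% called, 0 members under 0.05). The difference by training between membrane and cytosolic fractions passed for no member in Camk2a (1.38% of all genes called), pS6 (3.89%) or Input (0.151%), and members with an unadjusted p under 0.05 numbered 0, 1 and 1.

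**Figure D5:**
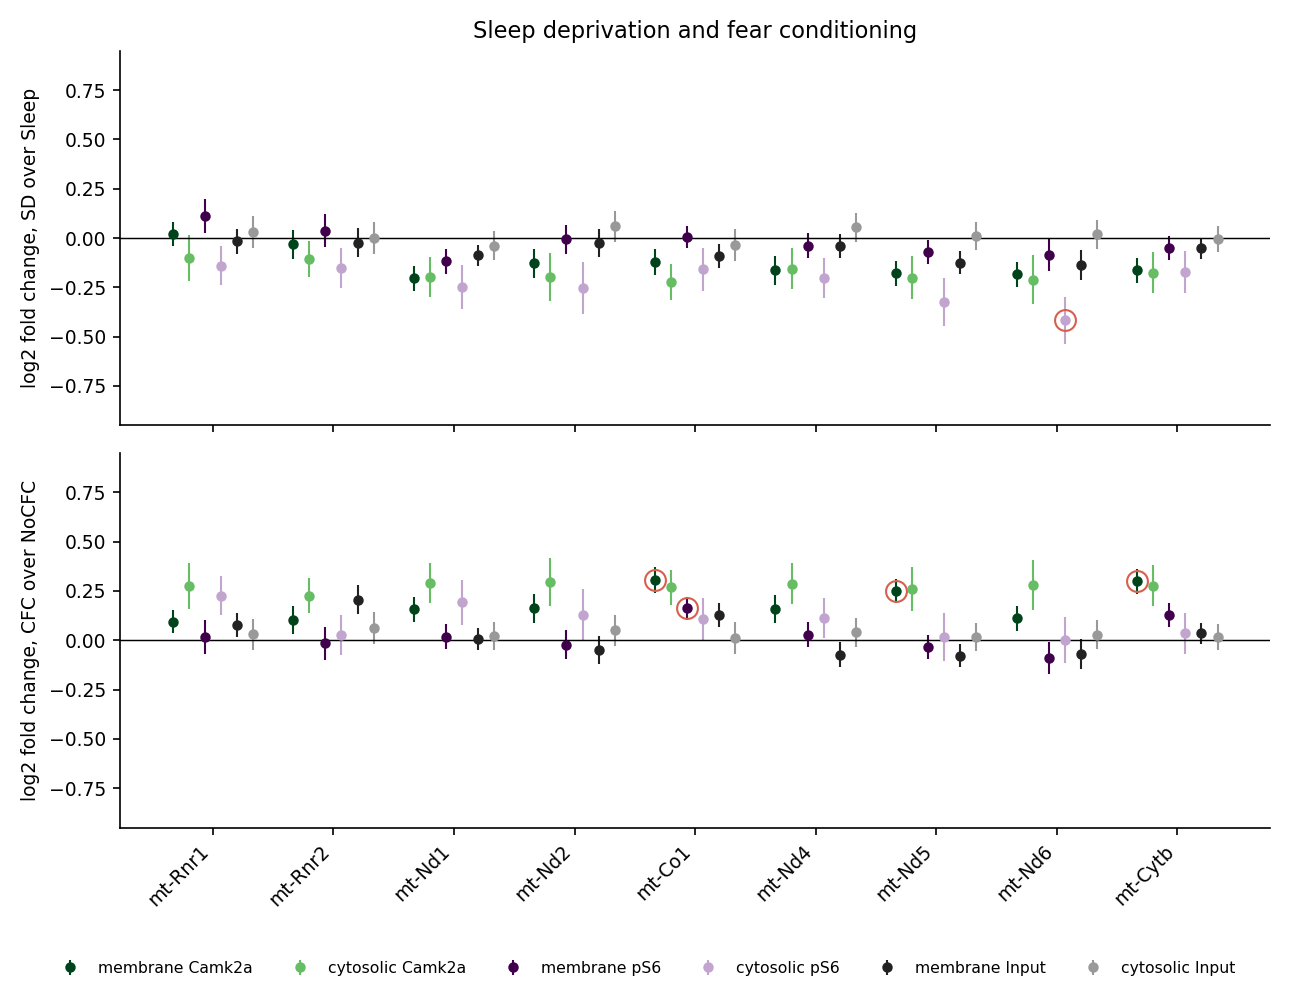
Log2 fold changes of the 9 mitochondrial genes for SD over Sleep (14 and 16 mice) and for CFC over NoCFC (15 mice each) in the 6 types of library; bars are SE and rings mark genes that passed an adjusted p of 0.05. Rings stand at mt-Nd6 for SD in cytosolic pS6, at mt-Co1, mt-Cytb and mt-Nd5 for CFC in membrane Camk2a, and at mt-Co1 for CFC in membrane pS6.

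Nuclear genes for mitochondrial proteins were read in the same comparisons. For SD, none of the 24 nuclear subunits passed in any type of library, where 7.88% of all genes were called in cytosolic pS6 and the shares given above in the other 5. By edgeR's test, 5 of them had an unadjusted p under 0.05 in membrane Camk2a, 1 in membrane pS6, 1 in membrane Input and 0 in each cytosolic type. Mgme1, a nuclease of mitochondrial DNA maintenance, rose by 0.33 ± 0.06 in cytosolic Camk2a (SE, adjusted p = 0.000234 by edgeR) and by 0.21 ± 0.06 in cytosolic Input (0.0406). For CFC in membrane Camk2a, 8 of 24 nuclear subunits fell and none rose (7.17% of all genes fell), among them Atp5b, the catalytic beta subunit of ATP synthase, at -0.17, Ndufv1 of complex I at -0.21 and Uqcrc1 at -0.20. The list's median was -0.10, with -0.01 over all genes tested. Of the ribosomal protein genes 9 of 78 fell, and of the RNA processing genes 5 of 31. Polrmt, the mitochondrial RNA polymerase, fell by 0.21. In membrane pS6, 7 of 24 nuclear subunits fell and none rose, where 8.75% of all genes fell. None passed in the other 4 types, with 0 to 2 at an unadjusted p under 0.05 by edgeR. These comparisons too coincide with the run of mouse numbers.

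A further difference ran with the mouse number. In all 6 types of library, mice with odd numbers had lower means than mice with even numbers for the 8 genes other than mt-Rnr1, in 48 of 48 ratios of means (0.807 to 0.967). For mt-Rnr1 the ratios were 0.966 to 1.11. In membrane Input, mt-Co1 had 8469, 9996 and 11176 CPM (lowest, median and highest) in odd-numbered and 10011, 12008 and 15645 CPM in even-numbered mice, which barely overlapped. Each of the 4 groups held 3 or 4 odd-numbered and 3 or 4 even-numbered mice. The labels do not say what the number stands for, and the values are given as a description. With odd or even number as a term, an alternative added after these values were seen, 2 genes fell with SD in membrane Camk2a, mt-Nd1 at -0.20 ± 0.05 (SE, adjusted p = 0.0229) and mt-Nd5 at -0.18 ± 0.05 (0.0367), and mt-Rnr2 rose with CFC in membrane Input, at 0.19 ± 0.06 (0.0347).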

How the data were processed

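The deposited file holds raw counts per gene and library, whole numbers with no normalization; per the submitters' processing notes the authors used GRCm38.p6, STAR 2.6.1a, featureCounts (no version) and MultiQC 1.6a0. Per the labels' protocols, libraries were made with SMART-seq v4. The strand setting and the treatment of reads with several matches are not given in the sources used here.

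Counts were fitted with edgeR 4.0.16 (R 4.3.3, limma 3.58.1, statmod 1.5.0): genes kept by filterByExpr, scaling by TMM, 1 coefficient for each of the 4 groups, and the robust quasi-likelihood test with Benjamini-Hochberg adjustment over all genes at 0.05. Comparisons of fractions and captures needed a fold of 2 besides and did not use the pairing by mouse. Between 9 and 14 members passed the filter in each comparison. Library types were fitted singly for SD and CFC. CPM values are counts per mega-count of the library total. DESeq2 1.42.0 was an alternative. The scripts were tested on simulated data. Within a type of library, the p-values take mice as replicates. In the main fits of fractions, captures and interactions with these, several libraries of a mouse enter as if independent. Depth was 12 to 27 M counts (mega-counts) per library; reads carry no molecular identifiers, so counts are not counts of molecules.

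Titles with equal numbers were taken as libraries of a single mouse, since the extract protocol in the labels divides each homogenate into Input and captures. With group means taken off, the correlation between same-numbered libraries had a median of 0.299, against -0.0148 for other pairs, and no libraries were copies (lowest chi-square per degree of freedom 2.86).

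The members and lists were chosen with earlier results of these data known. The genes named are each mt- protein and rRNA gene, the 6 tRNA genes with the highest mean CPM and any called, and, in each list, up to 3 higher and 3 lower with the smallest p among those called. The chromosome 1 pseudogenes, mt-Nd3 against Gm28438 and the odd and even mouse numbers were added after the values were seen. Positions and sequences are from GENCODE vM21 on GRCm38, matched with BLAST 2.17.0 between annotated transcripts; no genome sequence was used.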

Additional observations from a re-analysis of the deposited data

Results flagged for a closer look

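In groups of 7 or 8 mice, 72 shares of counts were examined for a mouse set apart from its group, and 4 were found, where chance gives about 1 in 20. Mouse 19 had the lowest tRNA share in membrane Camk2a of CFC SD, at 0.00015% of counts, against a group median of 0.000249%. Mouse 4 of NoCFC Sleep accounted for the other 3: its protein share was 0.0151% in cytosolic Camk2a (group median 0.0103%), its rRNA share there was 0.00518% (0.00319%), and its protein share in cytosolic pS6 was 0.0492% (0.0322%).

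The difference between membrane and cytosolic libraries was itself different between captured and Input libraries, tested as an interaction with edgeR's quasi-likelihood test: 10 members passed for Camk2a against Input and 10 for pS6 against Input. They were the 9 genes with a count in each library and mt-Tp, whose pass carries no weight, because it had 0 to 3 counts in a cytosolic Camk2a and 0 to 7 in a cytosolic pS6 library and entered through the libraries where it was higher.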

How the results depend on the processing

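Over 41 comparisons and 13 alternatives, 10 of them planned, 318 counts of members called were recomputed: 293 stayed within 1.5 times the reported count and 25 did not. Without a filter on low counts, 19 (Camk2a), 19 (pS6) and 25 (Input) members were called between membrane and cytosolic libraries, 19 (cytosolic Camk2a), 24 (membrane Camk2a), 18 (cytosolic pS6) and 23 (membrane pS6) for captures against Input, and 0 for CFC in membrane pS6. The CFC calls in membrane Camk2a came to 0 in even-numbered mice only, in mice 23 to 30 only and with the run of mouse numbers as a term. The SD call in cytosolic pS6 came to 0 in each of the 3 runs alone and in odd-numbered or even-numbered mice only. The CFC call in membrane pS6 came to 0 with library totals, in odd-numbered, in even-numbered and in mice 23 to 30 only, and with the run as a term. For SD in membrane Camk2a the count of 0 became 1 with DESeq2's Wald test (mt-Nd1, adjusted p = 0.0431) and 2 with odd or even number as a term, and that term gave 1 for CFC in membrane Input. With the replicate block for mouse, the SD effect in pS6 against Input in the cytosolic fraction became 1 (mt-Nd6) from 0, and the block changed no other count by over 1.5 times. The cause of these changes was not tested; subsets hold fewer mice.

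Of single gene values, 21 lost and 5 gained their call, and the other 3082 stayed called or stayed uncalled. Of values called in either setting, 0 changed direction. Uncalled values could change sign. For CFC in cytosolic Input, 9 of 9 genes were positive, but with the run as a term 9 of 9 were negative. Library totals moved the median of all genes by -0.26, -0.23 and -0.26 on the log2 scale between membrane and cytosolic Camk2a, pS6 and Input, and the lowest of the 9 genes then had 5.88, 4.31 and 2.70. Low counts make values less precise: of the 9 genes with a count in each library the lowest count was 32, for mt-Nd6 in a cytosolic Camk2a library. No replicate was left out singly, since each group held 7 or 8 mice.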
